A study of Mus musculus with 20 samples.

Results

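The genes described here are 33 genes that mark blood vessels and connective tissue in the brain, out of 23412 gene symbols in the deposited tables. They were taken by symbol from a list of 19 endothelial, 8 mural and 6 fibroblast genes, and all 33 were found in the tables of both tissues. RNA sequencing measured them in 20 libraries of hippocampus or amygdala from mice aged 21 postnatal days. Each tissue had 3 NCoR1-KO libraries, 3 SMRT-KO libraries and 4 control libraries. NCoR1 and SMRT are corepressors that nuclear receptors use to keep target genes off. The knockouts came from floxed NCoR1 or SMRT alleles crossed to Snap25-IRES2-cre, a driver that the submitters describe as pan-neuronal, so the deletion was aimed at neurons and not at vessel cells or fibroblasts. Whether control mice carried Cre or a floxed allele is not stated in the labels. Nor do the labels say that libraries of a group came from separate animals, so p-values measure the spread between these libraries, which may be technical.

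Brain endothelial cells line the capillaries and form the blood-brain barrier through tight junctions, efflux pumps and selective carriers. Mural cells wrap them: pericytes sit on capillaries, and smooth muscle cells ring arterioles and contract. Fibroblasts lie along larger vessels, in the meninges and in the stroma of the choroid plexus, where they deposit fibrillar collagens and small proteoglycans. Some of these genes are not confined to vessels, since the glucose transporter gene Slc2a1 is also used by astrocytes and the chemokine receptor gene Cxcr7 (current symbol Ackr3) also by neurons.

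No vascular or fibroblast gene passed the test in any of the 4 comparisons of a knockout with control. In amygdala, Rgs5, Pecam1 and Lum were lower in NCoR1-KO than in SMRT-KO. Between control tissues, Ocln and Cxcr7 were higher and Vtn, Anpep and Ogn lower in hippocampus than in amygdala. In hippocampus 5 of the 6 fibroblast genes varied more between libraries than each endothelial and mural gene, and in SMRT-KO hippocampus 1 library held several times the collagen RNA of the other two.

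A few facts about the libraries bear on these genes. All values are TPM, a relative abundance per transcript that allows for gene length, so levels can be set side by side between genes, and the sequencing depth behind them is unknown. Ncor1, the gene targeted in NCoR1-KO, was at 41.9 to 61.1 TPM in NCoR1-KO against 81.6 to 137 TPM in control hippocampus, and at 32.1 to 39.0 TPM in NCoR1-KO against 71.3 to 127 TPM in control amygdala. The gene targeted in SMRT-KO was not analysed here. Prox1, a marker of dentate granule cells, was at 19.6 to 84.3 TPM in hippocampus and 4.94 to 9.44 TPM in amygdala, and its lowest hippocampus value was in SMRT-KO replicate 3. Rspo2, known from basolateral amygdala, did not separate the tissues, with 4.19 to 14.5 TPM overall. Several hippocampus libraries carried RNA of neighbouring structures: the summed TPM of 14 choroid plexus markers was 2208, 73.5 and 11850 in NCoR1-KO, 66.2, 5922 and 89.9 in SMRT-KO, and 3353, 3391, 43.1 and 644 in control. A single marker, Ttr, made up most of the large sums, at 2083 and 11183 TPM in NCoR1-KO replicates 1 and 3. It was at 5583 TPM in SMRT-KO replicate 2 and at 3173 and 3250 TPM in control replicates 1 and 2. SMRT-KO replicate 2 also had a thalamus marker sum of 847 TPM, against at most 261 TPM in control hippocampus, and control replicate 2 had a striatum marker sum of 503 TPM. In amygdala the choroid plexus sum was 809 and 641 TPM in SMRT-KO replicates 1 and 3 and 1126 TPM in control replicate 1, against 30.4 to 110 TPM in the other libraries. Most of the 3 large sums was again Ttr, at 771, 583 and 1054 TPM in that order. Striatum sums in amygdala were 647 to 1117 TPM in NCoR1-KO, 1168 to 1863 TPM in SMRT-KO and 449 to 1347 TPM in control. In bulk tissue, fewer cells of a type and less RNA per cell cannot be told apart.

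Among the 33 genes, average levels over the 20 libraries ran between 4.35 TPM for Lum and 107 TPM for Rgs5, and all 33 reached 1 TPM in at least 3 libraries of each tissue, the minimum for testing. Rgs5, a regulator of G protein signalling typical of pericytes, led the mural genes. Slc2a1, the glucose transporter of the barrier, led the endothelial genes at 93.1 TPM, ahead of Ly6c1 (88.0 TPM) and Itm2a (85.2 TPM). Dcn, which encodes the collagen-binding proteoglycan decorin, led the fibroblast genes at 25.2 TPM. Neighbours in this order overlapped widely, as Slc2a1 ranged over 69.7 to 110 TPM and Ly6c1 over 69.8 to 115 TPM. Slc2a1 was at 107, 90.9 and 93.9 TPM in NCoR1-KO hippocampus, at 69.7, 110 and 72.9 TPM in SMRT-KO hippocampus and at 75.4, 97.7, 77.2 and 91.2 TPM in control hippocampus. Ly6c2, a near-identical neighbour of Ly6c1, reached at most 0.31 TPM. The split of reads between genes this alike is uncertain and was not examined.

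The classes differed in how evenly they were measured within a tissue. Over the 10 hippocampus libraries the coefficient of variation was 8.29% to 20.5% for endothelial genes, 11.9% to 30.5% for mural genes and 27.7% to 74.2% for fibroblast genes, with Ogn the highest. Over the 10 amygdala libraries it was 7.59% to 20.8% for endothelial, 6.24% to 29.5% for mural and 10.7% to 32.6% for fibroblast genes, with Ogn the lowest fibroblast gene and Lum the highest. The contractile genes Acta2 and Tagln led the mural genes in both tissues, at 29.5% and 30.5% in hippocampus and 27.5% and 29.5% in amygdala.

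**Figure D1:**
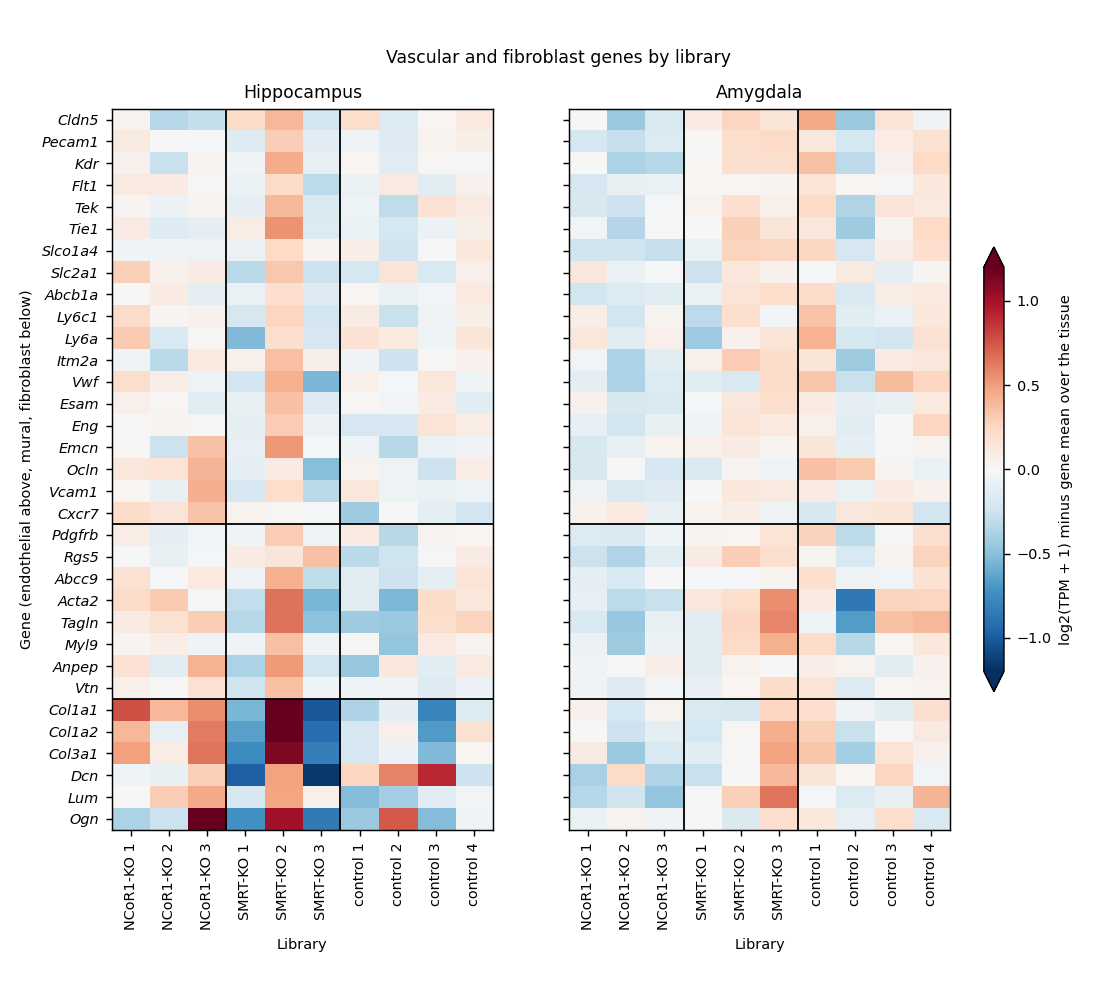
Level of each of the 33 genes (rows) in each library (columns) as log2(TPM + 1) minus the gene's mean over the 10 libraries of that tissue, with red above and blue below that mean. SMRT-KO replicate 2 of hippocampus is red in nearly every row and was the highest library for 26 of 33 genes.

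Single libraries stood out across all 3 classes. In hippocampus, SMRT-KO replicate 2 was the highest of the 10 libraries for 26 of the 33 genes, whereas it was highest for 22.0% of all tested genes. SMRT-KO replicate 3 was the lowest for 14 of the 33, beside 30.1% of all tested genes, and control replicate 2 for 9 of the 33, beside 9.05% of all tested genes. In amygdala, SMRT-KO replicate 3 was highest for 11 genes, beside 7.14% of all tested genes, and control replicate 1 for 12, beside 16.2%. NCoR1-KO replicate 2 was lowest for 12 genes, beside 7.07% of all tested genes. The part of neighbouring tissue in these extremes was not tested.

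The contractile genes of smooth muscle show this well. Acta2, smooth muscle actin, was at 11.3, 12.1 and 9.35 TPM in NCoR1-KO hippocampus, at 7.55, 15.5 and 6.16 TPM in SMRT-KO hippocampus and at 8.47, 6.21, 11.3 and 10.5 TPM in control hippocampus. In amygdala it was at 9.66, 8.15 and 8.48 TPM in NCoR1-KO, at 11.5, 12.2 and 15.8 TPM in SMRT-KO and at 11.2, 5.31, 12.7 and 12.6 TPM in control. Myl9, a regulatory light chain of smooth muscle myosin, had its highest hippocampus value in the same library as Acta2 (34.7 TPM in SMRT-KO replicate 2) and its highest amygdala value in SMRT-KO replicate 3 (39.2 TPM). Both genes peaked in the same library of each tissue, and so did Tagln, the actin-associated protein transgelin, at 13.3 and 14.8 TPM, although the gene Pcsk7 overlaps Tagln on the opposite strand.

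The promoters of Acta2 and Myl9 are shown as examples of contractile genes, picked after their values were seen, from 250 bases before to 50 bases after the transcription start, as RefSeq gives them on GRCm38.p6. Capitals mark matches to the CArG box, the element bound by serum response factor, allowing at most 1 G or C among its 6 central bases, a relaxation chosen after the sequences were seen. The Acta2 window is chr19:34255324-34255623 on the minus strand and the Myl9 window is chr2:156775214-156775513 on the plus strand, both written 5′ to 3′ along the gene.
Acta2: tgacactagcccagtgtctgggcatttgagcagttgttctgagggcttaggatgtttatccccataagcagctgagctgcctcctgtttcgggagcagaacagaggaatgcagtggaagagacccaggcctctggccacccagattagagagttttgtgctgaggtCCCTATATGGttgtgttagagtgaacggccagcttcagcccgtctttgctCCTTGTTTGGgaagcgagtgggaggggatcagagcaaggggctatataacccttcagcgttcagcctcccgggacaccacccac
Myl9: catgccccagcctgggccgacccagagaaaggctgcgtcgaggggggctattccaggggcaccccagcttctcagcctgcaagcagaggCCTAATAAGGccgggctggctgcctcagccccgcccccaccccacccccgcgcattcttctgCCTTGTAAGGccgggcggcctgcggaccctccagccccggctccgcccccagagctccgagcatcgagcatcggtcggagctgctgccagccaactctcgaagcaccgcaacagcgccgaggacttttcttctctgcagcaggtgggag

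The strict form, with A or T alone in the centre, was in the Myl9 promoter and not in that of Acta2, and in 1.63% of 32851 promoters of this length, with both strands searched. The relaxed form was in 9.98% of them. Since the relaxed form was chosen on these sequences, its matches are a description of the letters, and no binding was measured. The shared peak does not single out this pair, as hippocampus SMRT-KO replicate 2 was the highest library for 26 of the 33 genes.

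**Figure D2:**
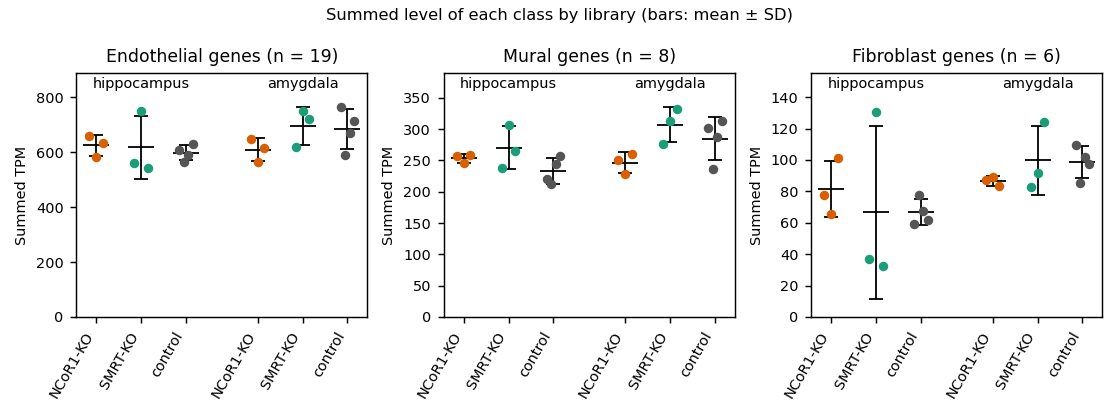
Summed TPM of the 19 endothelial, 8 mural and 6 fibroblast genes in each library (points), with the mean and SD of each group (bars). The fibroblast sum of SMRT-KO hippocampus spans 32.5 to 130 TPM, wider than in the other groups of that panel.

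In NCoR1-KO hippocampus, Ocln, Cxcr7, Vtn, Col1a1, Col3a1 and Lum lay above every control library, and none of them passed the test. The fibroblast sum was 77.8, 65.8 and 101 TPM in NCoR1-KO against 59.4, 77.8, 67.7 and 61.5 TPM in control. Of the 33 genes, 0 passed the adjusted threshold of 0.05 in limma, beside 0% of 14501 genes tested, and 2 reached an unadjusted p under 0.05, beside 4.54% of all genes. In direction, 25 of 33 genes lay above control, beside 50.0% of all genes. Those above every control were 6 of 33, beside 4.18% of all genes, and 0 lay below every control, beside 3.91%. The median log2 difference was 0.04 for endothelial, 0.17 for mural and 0.49 for fibroblast genes, beside 0.0001 for all genes tested.

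Cxcr7, which encodes a scavenging receptor for the chemokine CXCL12 (chr1:90203980-90216751), had the smallest p. It was at 21.9, 20.9 and 23.9 TPM in NCoR1-KO against 13.6, 18.6, 17.2 and 15.8 TPM in control hippocampus. Every NCoR1-KO library was above every control, and the log2 difference was 0.43 ± 0.10 (SE; limma adjusted p = 0.998).

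Lum encodes lumican, a proteoglycan that binds collagen fibrils (chr10:97565128-97572703). It was at 4.91, 6.29 and 7.14 TPM in NCoR1-KO against 3.15, 3.49, 4.43 and 4.82 TPM in control hippocampus, a log2 difference of 0.52 ± 0.19 (SE; limma adjusted p = 0.998). The groups did not overlap, though the lowest NCoR1-KO value lay close to the highest control.

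Col1a1 encodes the alpha-1 chain of type I collagen (chr11:94936224-94953042). It was at 16.7, 12.8 and 14.4 TPM in NCoR1-KO against 7.08, 8.73, 5.06 and 8.34 TPM in control hippocampus. The log2 difference was 0.93 ± 0.45 (SE; limma adjusted p = 0.998), and the groups did not overlap. The partner collagen Col3a1 was also above every control, at 10.6, 7.74 and 11.9 TPM in NCoR1-KO against 4.71 to 7.37 TPM in control. Col1a2, the other chain of type I collagen, overlapped, with 14.8 to 25.1 TPM in NCoR1-KO against 9.58 to 18.3 TPM in control.

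The collagen values of NCoR1-KO hippocampus stood beside unequal choroid plexus markers, of which 14 of 14 lay above control on average (median log2 difference 0.69, none past the test). Striatum markers lay below control for 9 of 10. The part of these tissues was not tested. Without NCoR1-KO replicate 3 and SMRT-KO replicate 2, the 2 libraries highest in choroid plexus markers, the Col1a1 difference was 0.94. SMRT-KO replicate 2 enters the estimate of spread and not this difference. NCoR1-KO replicate 1, with the highest Col1a1 of its group and a choroid plexus sum of 2208 TPM, stayed in.

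**Figure D3:**
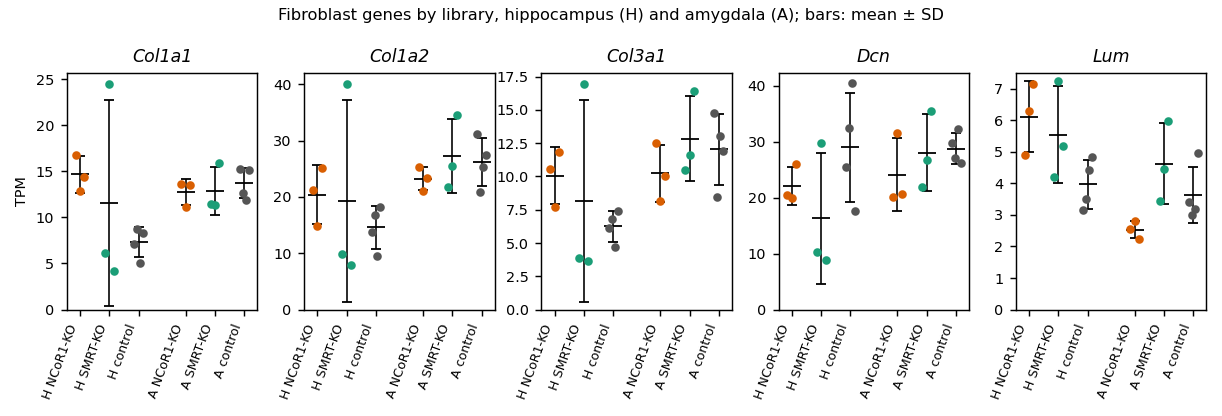
TPM of 5 fibroblast genes in each library (points), with the mean and SD of each group (bars), for hippocampus (H) and amygdala (A). Col1a1 in NCoR1-KO hippocampus lies at 12.8 to 16.7 TPM, above all 4 control hippocampus libraries, and replicate 2 is the highest of the 3 SMRT-KO hippocampus libraries for all 5 genes.

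SMRT-KO hippocampus, compared with the same 4 controls, showed high spread and no gene past the test. Of the 33 genes, 0 passed in limma, beside 0% of 14501 genes, and 2 reached an unadjusted p under 0.05, beside 5.61% of all genes. The median log2 difference was 0.06, beside -0.02 for all genes, and it was -0.12 without SMRT-KO replicate 2. The SMRT-KO values of 2 genes, Rgs5 and the membrane protein gene Itm2a, lay above every control, beside 2.07% of all genes. Oligodendrocyte markers lay above control for 10 of 10, with a median log2 difference of 0.40, ependyma markers lay below for 7 of 7 (-0.58) and choroid plexus markers below for 13 of 14 (-0.35). None of these passed, and their part was not tested.

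Rgs5 (chr1:169655501-169695813) was at 115, 118 and 136 TPM in SMRT-KO against 85.2, 90.4, 106 and 114 TPM in control hippocampus. The lowest SMRT-KO library was barely above the highest control, and the log2 difference was 0.32 ± 0.10 (SE; limma adjusted p = 0.779). Cxcr7 was at 19.2, 18.9 and 18.4 TPM in SMRT-KO against the control values given above, a log2 difference of 0.20 ± 0.10 (SE; limma adjusted p = 0.779), and overlapped control replicate 2.

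Dcn (chr10:97479609-97518143) was at 10.2, 29.9 and 8.93 TPM in SMRT-KO against 25.5, 32.5, 40.5 and 17.6 TPM in control hippocampus. SMRT-KO replicates 1 and 3 were below every control and replicate 2 was within the control range. The log2 difference was -0.93 ± 0.38 (SE; limma adjusted p = 0.779), and -1.45 without SMRT-KO replicate 2 and NCoR1-KO replicate 3.

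The collagens followed the same split among SMRT-KO hippocampus libraries. Col1a1 was at 6.17, 24.4 and 4.17 TPM, and Col1a2 at 9.81, 40.0 and 7.99 TPM. Col3a1 was at 3.88, 16.9 and 3.66 TPM, and the small proteoglycan gene Ogn at 2.81, 11.7 and 2.51 TPM. In each case replicate 2 was the high library, the one with the high thalamus and choroid plexus sums given above, and the other two were near or below the lowest control. The part of those tissues in the collagen values was not tested.

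Set directly against each other in hippocampus, NCoR1-KO and SMRT-KO gave 0 of 33 genes past the test in limma, beside 0% of 14501 genes, and 1 gene with an unadjusted p under 0.05, beside 6.59% of all genes. That gene was Ocln, at 18.7, 19.1 and 22.9 TPM in NCoR1-KO against 15.6, 18.2 and 11.6 TPM in SMRT-KO, with a log2 difference of 0.41 ± 0.15 (SE; limma adjusted p = 0.728).

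**Figure D4:**
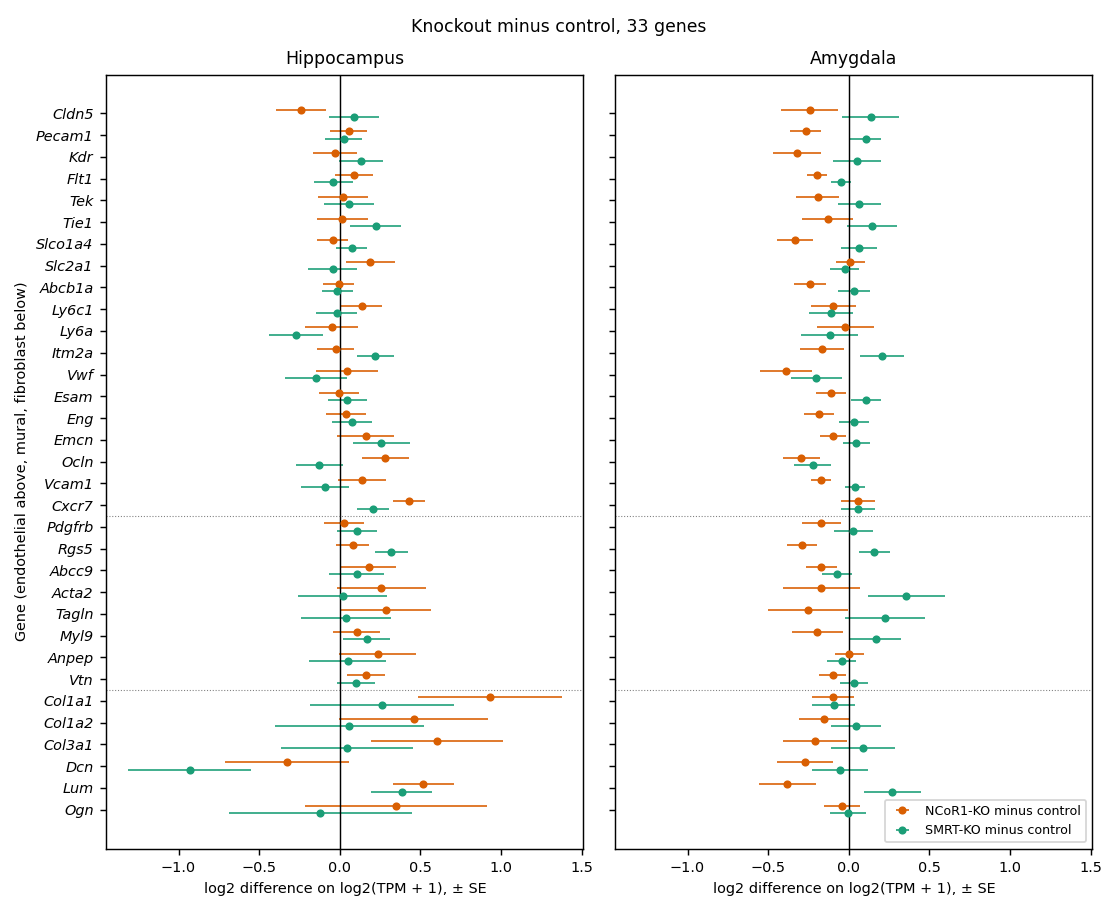
Log2 difference of each knockout minus control for the 33 genes, on the log2(TPM + 1) scale with the SE of the model (bars), for hippocampus and amygdala. NCoR1-KO lies left of 0 for 30 of 33 genes in amygdala and right of 0 for 25 of 33 in hippocampus, with no gene past the test.

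In amygdala, NCoR1-KO values lay below control for 30 of the 33 genes, beside 58.3% of all genes tested, and the differences were small. The endothelial sum was 610 ± 43.4 TPM in NCoR1-KO (SD, n = 3) against 685 ± 73.8 TPM in control (SD, n = 4), and the mural sum was 247 ± 16.7 against 285 ± 34.2 TPM. Of the 33 genes, 0 passed in limma, beside 0.411% of 14606 genes, and 8 reached an unadjusted p under 0.05, all lower, beside 9.81% of all genes. The median log2 difference was -0.17, beside -0.03 for all genes, and stayed between -0.27 and -0.12 under every alternative run. The classes were alike, with medians of -0.18 for endothelial, -0.17 for mural and -0.18 for fibroblast genes.

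The values of 3 genes, Flt1, Slco1a4 and Lum, lay below every control in NCoR1-KO amygdala, beside 8.43% of all genes. Flt1, a VEGF receptor that also acts as a decoy (chr5:147561604-147726011), was at 21.8, 23.6 and 23.6 TPM in NCoR1-KO against 28.3, 25.6, 24.7 and 27.6 TPM in control. Its log2 difference was -0.20 ± 0.06 (SE; limma adjusted p = 0.199). Slco1a4, an organic anion carrier of the barrier (chr6:141805440-141856199), was at 51.6, 51.3 and 50.1 TPM in NCoR1-KO against 72.4, 52.8, 64.4 and 69.98 TPM in control. The 3 NCoR1-KO libraries were close together, control replicate 2 lay just above them, and the log2 difference was -0.33 ± 0.11 (SE; limma adjusted p = 0.226).

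Rgs5 was at 88.1, 82.2 and 96.3 TPM in NCoR1-KO against 108, 92.8, 109 and 127 TPM in control amygdala. The highest NCoR1-KO library was above control replicate 2, so the groups overlapped, and the log2 difference was -0.29 ± 0.10 (SE; limma adjusted p = 0.225). The 3 genes not below control were Slc2a1, Cxcr7 and Anpep. Slc2a1 (chr4:119108711-119137983) was at 107, 92.1 and 96.6 TPM in NCoR1-KO against 95.8, 105, 90.5 and 99.8 TPM in control amygdala.

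Markers of other cells moved with these genes in NCoR1-KO amygdala. All 11 microglia markers lay below control, with sums of 581 to 634 TPM in NCoR1-KO against 636 to 805 TPM in control. For astrocytes 9 of 10 markers lay below, with sums of 3242 to 3335 TPM in NCoR1-KO against 3735 to 4251 TPM in control, and 10 of 10 oligodendrocyte markers lay below, with sums of 3952 to 5419 TPM in NCoR1-KO against 2693 to 9556 TPM in control. Choroid plexus markers lay below control for 10 of 11 and ependyma markers for 7 of 7. Neuron markers lay above control for 8 of 10, with sums of 8508 to 9103 TPM in NCoR1-KO against 8594 to 10200 TPM in control. These 10 markers include Snap25, the gene named in the Cre driver, and the lowest of them differed by -0.78 on the log2 scale. Thalamus markers lay below control for 5 of 7. Past the test, all as lower, were 1 neuron marker (limma adjusted p = 0.00732), 1 thalamus marker (limma adjusted p = 0.0162) and 1 astrocyte marker (limma adjusted p = 0.0291). The part of these cells and structures in the vascular values was not tested.

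SMRT-KO amygdala, set against the same controls, gave 0 of 33 genes past the test in limma, beside 0.110% of 14606 genes, and 0 at an unadjusted p under 0.05, beside 22.0% of all genes. Of the 33 genes, 22 lay above control, beside 42.0% of all genes, with a median log2 difference of 0.05. Ocln had the smallest p, at 8.58, 10.02 and 9.33 TPM in SMRT-KO against 12.8, 12.4, 10.1 and 9.21 TPM in control, a log2 difference of -0.22 ± 0.11 (SE; limma adjusted p = 0.284). The control libraries formed a high and a low pair, and SMRT-KO overlapped the low pair. Rgs5 was at 113, 130 and 122 TPM in SMRT-KO, and its log2 difference to control was 0.16 ± 0.10 (SE; limma adjusted p = 0.360). Lum was at 3.43, 4.47 and 5.98 TPM in SMRT-KO against 3.42, 3.0, 3.2 and 4.95 TPM in control amygdala (log2 difference 0.27 ± 0.18, SE; limma adjusted p = 0.397).

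Markers of several other cells and structures, though not all, also lay above control in SMRT-KO amygdala. For oligodendrocytes this held for 10 of 10 markers, with a median log2 difference of 0.87 and sums of 8066 to 12170 TPM in SMRT-KO against 2693 to 9556 TPM in control. For striatum it held for 10 of 10, with a median of 0.94, and for choroid plexus for 11 of 11, with a median of 0.39. None of these markers passed the adjusted threshold in limma, and 9 oligodendrocyte and 9 striatum markers reached an unadjusted p under 0.05. Microglia markers lay above control for 10 of 11, while ependyma markers lay below for 5 of 7 (median -0.43) and astrocyte markers for 6 of 10. Neuron markers, Snap25 among them, lay above for 6 of 10, and 1 passed as lower (limma adjusted p = 0.00507). The lowest neuron marker differed by -0.85 on the log2 scale. Thalamus markers lay above for 3 of 7, and 1 passed as higher (limma adjusted p = 0.0474). The part of these cells and structures in the vascular values was not tested.

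The knockouts differed from each other in amygdala, where 3 of the 33 genes passed, all lower in NCoR1-KO than in SMRT-KO. These are 9.09% of the 33 genes, beside 6.46% of 14606 genes that passed as lower and 11.5% that passed in either direction. In all, 28 of 33 genes were below SMRT-KO, beside 50.1% of all genes, with a median log2 difference of -0.21, beside 0.00 for all genes. The values of 15 genes lay below every SMRT-KO value, beside 19.6% of all genes, and 0 lay above every SMRT-KO value, beside 18.8%.

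Rgs5 averaged 88.8 TPM in NCoR1-KO amygdala and 122 TPM in SMRT-KO amygdala, with a control average of 109 TPM. Every NCoR1-KO library, at 82.2 to 96.3 TPM, was below every SMRT-KO library, at 113 to 130 TPM. The log2 difference was -0.45 ± 0.10 (SE; limma adjusted p = 0.0241). Pecam1, an adhesion molecule of endothelial junctions (chr11:106654217-106750628), was at 16.0, 15.2 and 16.5 TPM in NCoR1-KO against 18.9, 21.8 and 22.1 TPM in SMRT-KO, with control at 16.0 to 21.3 TPM. The groups did not overlap, and the log2 difference was -0.37 ± 0.10 (SE; limma adjusted p = 0.0446).

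Lum was at 2.54, 2.80 and 2.25 TPM in NCoR1-KO against 3.43, 4.47 and 5.98 TPM in SMRT-KO amygdala, again without overlap. Its log2 difference was -0.65 ± 0.19 (SE; limma adjusted p = 0.0483). These calls rest on few libraries: with limma, Rgs5 lost its call without NCoR1-KO replicate 1 (adjusted p = 0.0611), NCoR1-KO replicate 2 (0.0917), SMRT-KO replicate 2 (0.0931) or SMRT-KO replicate 3 (0.0823). Pecam1 and Lum lost theirs without each of these 4 libraries in turn, without NCoR1-KO replicate 3 or control replicate 3, and Lum also without control replicate 1 (adjusted p-values of 0.0553 to 0.162). Both also missed the threshold with no filter, quantile normalization, no variance trend, all 20 libraries in the fit (0.0548 to 0.0745) or the replicate number as a block (0.0716 for Pecam1 and 0.0662 for Lum), where Rgs5 passed.

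Of 123 tested genes in 6 lists of related vessel, barrier and matrix genes, 12 passed in the same comparison, 11 of them lower in NCoR1-KO. That is 9.76% of these genes, beside the 11.5% of all genes, and 8.94% as lower, beside 6.46%, so the counts are near the background. The largest difference was that of Itga1, the collagen-binding integrin alpha-1, at 2.73, 3.21 and 3.12 TPM in NCoR1-KO against 7.39, 8.45 and 8.20 TPM in SMRT-KO amygdala (log2 difference -1.17 ± 0.13, SE; limma adjusted p = 0.0014). It also fell against control, at 4.86 to 6.98 TPM, with a log2 difference of -0.80 ± 0.12 (SE; limma adjusted p = 0.0274), the sole such call among the 123 genes. The gene Pelo overlaps Itga1 on the same strand, so its reads are uncertain. The log2 difference between the knockouts was -0.54 for the thyroid hormone and anion carrier gene Slco1c1, -0.63 for the iron exporter gene Slc40a1 and -0.47 for the Wnt effector gene Lef1. For these 3 genes NCoR1-KO averaged below control and SMRT-KO above it, and neither difference to control passed.

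The other genes lower in NCoR1-KO than in SMRT-KO were the Wnt coreceptor gene Lrp6, the transcription factor gene Sox18, the tight junction scaffold gene Tjp1, the caveolar gene Cav2, the integrin gene Itgb1, the tropomyosin gene Tpm2 and the peptide ligand gene Apln. Tpm2 averaged 3.67 TPM in NCoR1-KO, 7.28 TPM in SMRT-KO and 3.74 TPM in control. Apln averaged 12.1 TPM in NCoR1-KO, 21.8 TPM in SMRT-KO and 11.8 TPM in control, so for both genes NCoR1-KO lay near control and SMRT-KO above it. Col4a2, a chain of basement membrane collagen, was higher in NCoR1-KO, with 54.2 TPM against 43.6 TPM in SMRT-KO on average.

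Markers of several other cells and structures, though not all, moved with these genes. Oligodendrocyte markers were below every SMRT-KO value in NCoR1-KO for 10 of 10, with a median log2 difference of -1.10 and sums of 3952 to 5419 TPM in NCoR1-KO against 8066 to 12170 TPM in SMRT-KO, and 1 of them passed. Striatum markers were lower for 10 of 10, with a median of -1.03, 8 of them without overlap and 1 past the test. Choroid plexus markers were lower for 11 of 11, with a median of -0.61 and none past the test. Microglia markers were below every SMRT-KO value for 11 of 11, with a median of -0.34, and 7 passed. Of 10 astrocyte markers 3 passed as lower. Other lists were split: of 7 thalamus markers 1 passed as higher and 2 as lower (smallest limma adjusted p = 0.000224). Neuron markers lay above SMRT-KO for 5 of 10, and 1 passed as higher (limma adjusted p = 0.0374). The part of these cells and structures in the vascular values was not tested.

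Against control, no other gene of the 6 lists passed. In hippocampus the smallest p-values were those of Cav2, Col6a2 and Gucy1a3 for NCoR1-KO, with log2 differences of -0.20, -0.74 and -0.36, and of Col4a2, Col5a1 and Vegfc for SMRT-KO, with 0.25, -0.51 and 0.34. The Gucy1a3 value rests on control replicate 2, the library with the high striatum sum, at 43.2 TPM against 24.43 to 26.53 TPM in the other controls and 22.5 to 22.7 TPM in NCoR1-KO. Without that library, left out after seeing the data, the Gucy1a3 difference was -0.18 and that of Col6a2 -0.48. In SMRT-KO amygdala they were those of Col4a1 (log2 difference -0.28, limma adjusted p = 0.0641), Tpm2 (0.77, adjusted p = 0.0655) and Apln (0.81, adjusted p = 0.0657).

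**Figure D5:**
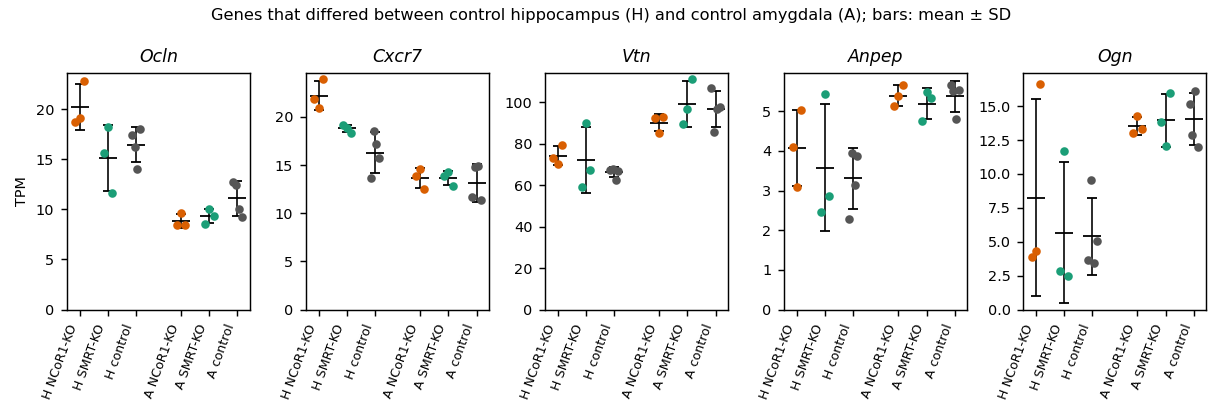
TPM of the 5 genes that differed between control hippocampus (H) and control amygdala (A) in each library (points), with the mean and SD of each group (bars). Ocln is higher in hippocampus than in amygdala within each genotype, and Ogn is high in every amygdala library and in 3 hippocampus libraries.

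Control hippocampus differed from control amygdala in 5 of the 33 genes, 2 higher and 3 lower. That share is below the background, since 32.5% of 14210 genes passed, 13.2% as higher and 19.3% as lower. In hippocampus 30 of 33 genes lay below amygdala, beside 56.2% of all genes, with medians of -0.18 for endothelial, -0.16 for mural and -0.83 for fibroblast genes, beside -0.03 for all genes. The groups did not overlap for 1 gene higher in hippocampus, beside 13.6% of all genes, and for 6 genes lower in hippocampus, beside 19.1%.

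Ocln encodes occludin, a tight junction protein of the barrier (chr13:100496507-100552718). It was at 17.4, 16.2, 14.1 and 18.03 TPM in control hippocampus against 12.8, 12.4, 10.1 and 9.21 TPM in control amygdala, a log2 difference of 0.53 ± 0.12 (SE; limma adjusted p = 0.00329). All hippocampus libraries were above all amygdala libraries within control, within NCoR1-KO (18.7 to 22.9 against 8.39 to 9.61 TPM) and within SMRT-KO (11.6 to 18.2 against 8.58 to 10.02 TPM). Oligodendrocyte markers were also higher in control hippocampus, with 10 of 10 past the test and sums of 10780 to 19930 TPM in control hippocampus against 2693 to 9556 TPM in control amygdala. Their part in the Ocln values was not tested.

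Cxcr7 averaged 16.3 TPM in control hippocampus and 13.2 TPM in control amygdala, with the amygdala libraries at 11.6, 14.8, 14.9 and 11.3 TPM. The log2 difference was 0.29 ± 0.10 (SE; limma adjusted p = 0.0285), although the groups overlapped. The call was lost without hippocampus control replicates 2 (adjusted p = 0.0923) or 3 (0.0758), without amygdala control replicates 1 (0.0899) or 4 (0.102), and with only the groups compared in the fit (0.0961). Within each knockout all hippocampus libraries lay above all amygdala libraries, at 20.9 to 23.9 against 12.5 to 14.6 TPM in NCoR1-KO and 18.4 to 19.2 against 12.8 to 14.3 TPM in SMRT-KO.

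The mural genes that passed were lower in hippocampus. Vtn encodes vitronectin, an adhesive matrix protein that pericytes secrete (chr11:78499091-78502324). It was at 67.3, 68.0, 62.6 and 66.7 TPM in control hippocampus against 107, 85.5, 96.9 and 97.9 TPM in control amygdala, without overlap, and the log2 difference was -0.54 ± 0.10 (SE; limma adjusted p = 0.000517). Within SMRT-KO the tissues overlapped, as hippocampus replicate 2 reached 90.1 TPM and the lowest amygdala library was at 89.5 TPM. Anpep, an aminopeptidase on the pericyte surface (chr7:79821803-79861059), was at 2.29, 3.94, 3.13 and 3.88 TPM in control hippocampus against 5.65, 5.51, 4.79 and 5.54 TPM in control amygdala. Its log2 difference was -0.58 ± 0.17 (SE; limma adjusted p = 0.0141), the groups did not overlap, and the adjusted p was 0.0563 without hippocampus control replicate 1.

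Ogn encodes osteoglycin, a small proteoglycan made by meningeal fibroblasts (chr13:49608046-49624501), and the gene Cenpp overlaps it on the opposite strand. It was at 3.65, 9.53, 3.41 and 5.08 TPM in control hippocampus against 15.2, 12.9, 16.1 and 12.01 TPM in control amygdala. The groups did not overlap, and the log2 difference was -1.31 ± 0.40 (SE; limma adjusted p = 0.0184), with 0.0542 and 0.0569 without hippocampus control replicates 1 and 3. In knockout hippocampus it reached 16.6 TPM in NCoR1-KO replicate 3 and 11.7 TPM in SMRT-KO replicate 2, the libraries with the highest choroid plexus sums. It was at 2.51 to 4.29 TPM in the other knockout libraries, among them NCoR1-KO replicate 1 with a choroid plexus sum of 2208 TPM. Control replicates 1 and 2, with Ogn at 3.65 and 9.53 TPM, had sums of 3353 and 3391 TPM. The part of choroid plexus in the Ogn values was not tested. In amygdala all 10 libraries lay between 12.01 and 16.1 TPM.

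The 3 collagens followed Ogn between the control tissues without passing. Col1a1 averaged 7.30 TPM in control hippocampus and 13.7 TPM in control amygdala, and Col3a1 6.27 and 12.1 TPM. Col1a2 averaged 14.6 TPM in control hippocampus and 26.2 TPM in control amygdala. No control hippocampus library reached an amygdala control for any of them, and their limma adjusted p-values were 0.0542 to 0.0751.

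All 20 libraries share the estimate of spread, and the number of calls between control tissues moved with several of them. It was 11 without hippocampus SMRT-KO replicate 2, where Col1a1, Col1a2 and Col3a1 joined, 9 without SMRT-KO replicate 3, and 11 without amygdala control replicate 2. It was also 11 with genotype and replicate number as a block, and 3 without hippocampus control replicate 3.

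Markers of other cells differed between the control tissues as well. Of 11 microglia markers 8 were lower in hippocampus, with sums of 537 to 660 TPM in control hippocampus against 636 to 805 TPM in control amygdala. Of 6 perivascular macrophage markers 4 were lower, with sums of 11.6 to 13.1 TPM against 23.7 to 26.8 TPM. Of 10 striatum markers 7 were lower, with sums of 141 to 503 TPM in control hippocampus against 449 to 1347 TPM in control amygdala. Other lists ran the opposite way: choroid plexus markers were higher in control hippocampus for 11 of 11, with 2 past the test, and ependyma markers for 7 of 7, with 4 past the test. Neuron and thalamus markers were split. Of 10 neuron markers 2 passed as higher and 4 as lower in hippocampus (smallest limma adjusted p = 3.5e-07), and of 7 thalamus markers 1 passed as higher and 2 as lower. The part of these cells in the vascular differences was not tested.

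Among the 6 related lists, 39 of 122 genes passed between control tissues, 5 higher and 34 lower in hippocampus. The total is 32.0% of these genes, beside 32.5% of all genes, with 4.10% as higher, beside 13.2%, and 27.9% as lower, beside 19.3%. Nrp1, a coreceptor for VEGF and semaphorins that neurons also carry, was 90.1 TPM in control hippocampus against 22.6 TPM in control amygdala on average (log2 difference 1.95 ± 0.11, SE; limma adjusted p = 1.02e-09). Gucy1a3, a subunit of the nitric oxide receptor guanylate cyclase, was 30.1 TPM in control hippocampus and 94.2 TPM in control amygdala (-1.65 ± 0.12, SE; limma adjusted p = 3.6e-08). Striatum markers were also lower in control hippocampus, as given above, and their part in the Gucy1a3 values was not tested. The meningeal carrier genes Slc22a6 and Slc6a13 were lower in hippocampus by 1.33 and 1.37 on the log2 scale, and the proteoglycan gene Fmod by 2.07.

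The NCoR1-KO effect was compared between tissues, as the difference in hippocampus minus that in amygdala. Of the 33 genes, 0 passed in limma, beside 0% of 14210 genes, and 5 reached an unadjusted p under 0.05, all higher, beside 1.71% of all genes. The hippocampus effect was the more positive for 31 of 33 genes, beside 59.1% of all genes, and the median was 0.29, beside 0.03 for all genes. Lum stood at 0.90 ± 0.27 (SE; limma adjusted p = 0.998) and Ocln at 0.58 ± 0.19 (SE; limma adjusted p = 0.998). Choroid plexus markers were also the more positive for 11 of 11, with a median of 0.92, and oligodendrocyte markers for 10 of 10, with a median of 0.41. None of these passed, and their part was not tested. For SMRT loss the same contrast gave 0 of 33 genes past the test, beside 0% of 14210 genes, 0 genes at an unadjusted p under 0.05, beside 8.85% of all genes, and a median of 0.01 that turned to -0.16 without hippocampus SMRT-KO replicate 2.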

How the data were processed

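Gene-level TPM values for 10 hippocampus and 10 amygdala libraries were deposited by the authors as 1 table per tissue, with 23412 symbols each. RSEM 1.3.3, STAR 2.5.3a, fastp 0.21.0 and bcl2fastq are named in the submitters' processing notes, as is the mm10 build, without their roles. The gene annotation used is not stated in these sources. Per the labels' protocols, RNA came from an RNeasy lipid tissue kit and libraries from a TruSeq stranded mRNA kit. TPM keeps no depth, so no counting error can be attached. Groups were taken from the sample titles, and all columns belonged to labelled samples.

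Tests used limma 3.58.1 (R 4.3.3) on log2(TPM + 1) with a variance trend. Log2 differences on this scale understate changes of low genes. Genes entered a tissue's test with 1 TPM or more in 3 or more of its libraries. Within a tissue all 10 libraries entered the fit with genotype as group. Control tissues, and knockout effects between tissues, were compared in a fit of all 20 libraries, unpaired. P-values were adjusted over all tested genes by the Benjamini-Hochberg method, with 0.05 as the threshold. The test was tried on simulated data.

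The 33 genes and the related and marker lists were chosen with earlier results of these data known. Genes are named where they passed, where they had the 3 smallest p-values against control, or where they led their class in level. For the related lists, genes past the threshold are named or counted, otherwise the 3 of smallest p. Beyond that rule, Acta2, Tagln, Myl9, Itm2a, the collagens, Prox1 and Rspo2 were named after their values were seen. Both knockouts share the controls of a tissue. Positions are from GENCODE M21 (GRCm38, the assembly mm10 names) and promoters from RefSeq (GRCm38.p6). Other pseudocounts, filters, scalings, variance models, sample sets and a replicate block were tried.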

Additional observations from a re-analysis of the deposited data

Results flagged for a closer look

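In 5 of 72 control groups examined (the 33 genes and 3 class scores in each tissue) 1 library lay far from the others, relative to the group's range. A class score is the median, over the genes of a class, of log2(TPM + 1) minus the gene's mean over that tissue. Chance flags about 1 in 20 groups. In hippocampus, Emcn, the sialomucin of endothelial surfaces, was 9.47 TPM in control replicate 2 and 11.4 to 11.8 TPM in the others. Myl9 was 19.2 TPM in the same library and 27.4 to 29.1 TPM in the others. Vcam1, a leukocyte adhesion molecule, was 34.7 TPM in hippocampus control replicate 1 and 29.6 to 30.1 TPM in the others. In amygdala, Itm2a was 68.3 TPM in control replicate 2 and 98.5 to 102 TPM in the others, and Anpep was 4.79 TPM in control replicate 3 and 5.51 to 5.65 TPM in the others.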

How the results depend on the processing

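No vascular or fibroblast gene passed in the 4 comparisons with control, in hippocampus NCoR1-KO against SMRT-KO or in the 2 contrasts between tissues under any alternative run. For SMRT-KO in hippocampus the median difference of 0.06 was -0.12 to 0.17 with 1 library left out, -0.15 without SMRT-KO replicate 2 and control replicate 2, and -0.12 without NCoR1-KO replicate 3 and SMRT-KO replicate 2. The median SMRT-KO effect in hippocampus minus amygdala (0.01) was -0.16 to 0.13 with 1 library left out, and -0.16 without either of those pairs (-0.161 and -0.157). In amygdala NCoR1-KO against SMRT-KO the 3 calls became 1 with no filter, 1 with quantile normalization, 1 without a variance trend, 1 with the replicate block, 6 with only the groups compared, 6 without control replicates 1 and 2, and 0 to 8 with 1 library left out, 8 being without control replicate 2. The 5 calls between control tissues became 8 with only the groups compared, 11 with the replicate block, 9 without either pair of hippocampus libraries, 3 without amygdala control replicates 1 and 2, and 3 to 11 with 1 library left out. Vtn and Ocln passed in all of these. The cause of these changes was not tested. The alternatives that leave out 2 libraries were chosen after seeing the data. Same-numbered libraries of different genotypes deviated together, with a correlation over 0.1, in 2 of 9 pairs in each tissue. For differently numbered pairs this was 10 of 24 in hippocampus and 8 of 24 in amygdala. Across tissues, within a genotype, it held for 7 of 10 same-numbered pairs and 2 of 24 differently numbered pairs. Of 20 libraries 15 correlated best with their own number, among 3 or 4 candidates each, a hint from the data and not the design. The labels do not pair the libraries, so the block is given as an alternative, and beyond the 2 comparisons named here it changed no count of calls. TPM keeps no depth, so low values such as those of Lum and Anpep have no counting interval.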
